A study of Mus musculus with 141 samples.

Results

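Kidneys of the Collaborative Cross (CC) mice with the highest Pik3c2g level were compared with those with the lowest. The 47 kidney libraries were ordered by the log2 of 1 plus the CPM of Pik3c2g, its count scaled to the library's total without the ribosomal RNA gene Rn45s, and the 12 highest and 12 lowest formed the high and the low group, which were therefore selected on a measured value. These are 24 of 47 kidneys and of 141 libraries in all. The measured level of Pik3c2g itself chose the groups, so its difference between them is a description, and the gene was left out of every test on the kidneys of these groups and of the middle group.

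The CC strains are recombinant inbred mice whose genomes mix those of the same founders, and liver, lung and kidney of 1 male mouse from each of 47 strains were profiled by RNA-seq. The mice of both groups were adults of 8 to 12 weeks, were fed the NTP 2000 diet on a 12-h light cycle and had spent 6 h per day in mesh chambers supplied with clear air. No treatment, allele or agent in the labels sets the groups apart other than the strain. Since a strain is represented by a single mouse, strain and mouse cannot be told apart, and each test measures the spread between such mice.

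Pik3c2g encodes the gamma isoform of the class II phosphoinositide 3-kinases, lipid kinases that phosphorylate the inositol head group of membrane lipids and are known for work on endosomes. In liver the enzyme has been tied to the pool of phosphatidylinositol 3,4-bisphosphate that sustains Akt2 and glycogen storage after insulin. Its relatives Pik3c2a and Pik3c2b are made in many tissues, whereas Pik3c2g is more restricted. In the deposited build (NCBIM37) the gene runs along the plus strand of chromosome 6 from 139570409 to 139916464 in the GENCODE vM1 annotation.

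The gene that sorted the kidneys has more than 1 annotated start. RefSeq lists 2 for mouse, 227 kb apart, and the 250 bases before each are shown. The letters come from RefSeq's GRCm38.p6 table and were found once each on chromosome 6 of NCBIM37, whose coordinates are given. They are the reference sequence, and the sequence of the CC strains was not analysed here. Capitals mark matches, on either strand, to the TATA-box letters TATAAA or to GTTAAT, the half-site of the kidney and liver factor HNF1, and these motifs do not overlap.
Upstream start, plus strand, chr6:139562343-139562592: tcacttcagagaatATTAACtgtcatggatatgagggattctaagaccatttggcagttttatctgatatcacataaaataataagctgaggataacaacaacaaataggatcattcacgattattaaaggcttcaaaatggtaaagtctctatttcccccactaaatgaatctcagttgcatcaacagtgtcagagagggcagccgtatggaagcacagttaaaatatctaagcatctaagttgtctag
Downstream start, plus strand, chr6:139789716-139789965: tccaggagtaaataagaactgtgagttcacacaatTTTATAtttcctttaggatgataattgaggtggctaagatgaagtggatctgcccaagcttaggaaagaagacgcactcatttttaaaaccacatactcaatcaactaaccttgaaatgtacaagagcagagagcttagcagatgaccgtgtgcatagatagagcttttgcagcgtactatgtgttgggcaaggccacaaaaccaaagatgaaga
The upstream window held 1 GTTAAT match, read on the minus strand, at position -236 from its start. The downstream window held 1 TATAAA match, also on the minus strand, at position -215 from its start. Of 32851 RefSeq promoter windows of this length, 12.4% held TATAAA and 6.43% held GTTAAT on either strand.

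In the high group Pik3c2g ranged from 65.9 to 104.7 CPM with a median of 74.0, on 187 to 764 counts per kidney. In the low group it ranged from 0.351 to 3.39 CPM with a median of 2.44, on 2 to 36 counts. The ratio of the group medians was 30.3. The 1 low kidney with no more than 3 counts, that of CC015, lay at the level where a count is not resolved, and in this text 3 counts stand for that limit and cover counting error only. In length-scaled units the medians were 23.6 and 0.810 TPM.

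The 23 kidneys between the groups ranged from 3.69 to 61.6 CPM. The last kidney inside the high group (CC013) had 65.9 CPM and the first one outside it (CC061) had 61.6, so the upper boundary does not fall at a break in the values. At the lower boundary CC045 was inside at 3.39 and CC030 outside at 3.69. The widest step between neighbouring kidneys lay elsewhere, between 6.51 and 22.1 CPM, with 19 kidneys below and 28 above it. Of the middle kidneys, 7 were below this step and 16 above.

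**Figure D1:**
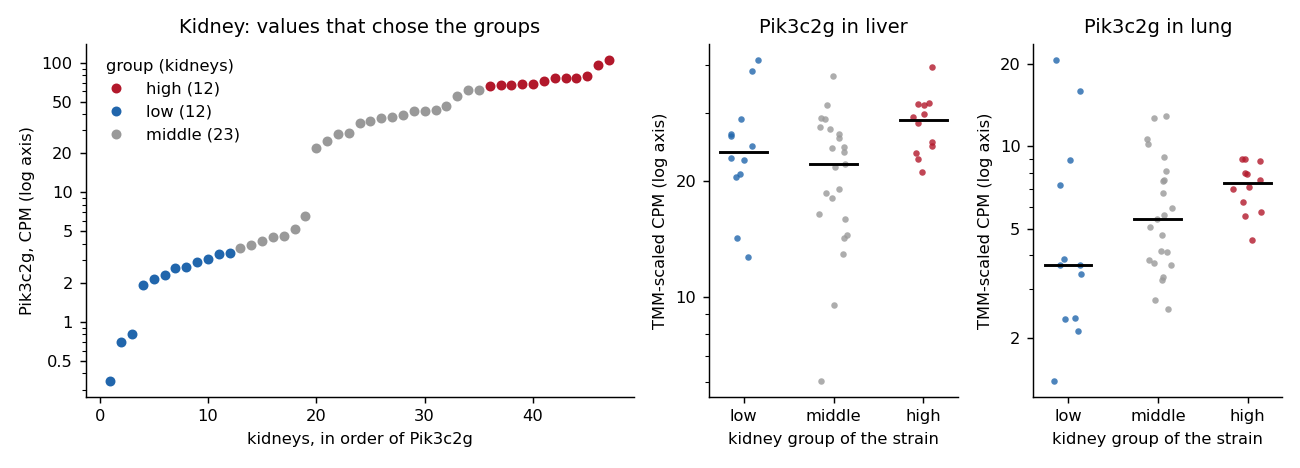
Left, Pik3c2g in CPM (log axis) in the 47 kidneys in rising order, coloured by group; centre and right, Pik3c2g in TMM-scaled CPM (log axis) in the livers and lungs of the same strains, with a bar at each group's median. The kidney values, which chose the groups, step from 6.51 to 22.1 CPM between the 19 lower and 28 upper kidneys. The liver and lung values of the high and low strains overlap.

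Scaling bears on who is in the high group. Counts were scaled for all comparisons with TMM (trimmed mean of M-values), which compares libraries on the bulk of their genes. On TMM-scaled CPM, 10 of the 12 high strains and 11 of the 12 low strains would have been chosen. Lars2 is annotated as the gene of mitochondrial leucyl-tRNA synthetase. Of the counts without Rn45s it took a median of 4.55% in the high kidneys and 11.8% in the low kidneys. In the 16 middle kidneys above the step it took 28.9% (range 1.84% to 54.7%). Whether the reads assigned to Lars2 come from the messenger RNA of that enzyme was not tested, so its share is given as a library measure. Among 19 measures of the libraries and of cell type marker sums, the share of Lars2 had the smallest permutation p between the high and low groups (two-sided, p = 0.0417, Benjamini-Hochberg adjusted over the 19 measures 0.318). Rn45s took a median of 13.1% and 22.8% of all counts, its own included, in the high and low kidneys (p = 0.0922, adjusted 0.318). Total counts without Rn45s ran from 2591623 to 10961518 in the high kidneys and from 4428810 to 14217228 in the low kidneys (p = 0.0858, adjusted 0.318).

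With Pik3c2g set aside, no gene differed between the 2 groups of kidneys past the threshold. Of 11930 genes tested with limma-voom, 0 (0.0%) reached an adjusted p (q) of 0.1, and the smallest q was 0.975. At an unadjusted p under 0.05 there were 578 genes, 4.84% of those tested, 325 estimated higher and 253 lower in the high kidneys. The quasi-likelihood test of edgeR also called 0 genes at q ≤ 0.1, with 528 at an unadjusted p under 0.05, and the Wald test of DESeq2 called 2 with 564. The median 95% interval of a gene's log2 fold change reached 0.31 to either side of its estimate. This interval is unadjusted, so it does not give the change that would pass q ≤ 0.1.

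Gstcd was 1 of the 2 genes called by DESeq2 and is named after its values were seen. It encodes a protein with a glutathione S-transferase C-terminal domain and had medians of 17.3 CPM in the high and 11.5 CPM in the low kidneys. Its ranges, 11.3 to 22.2 and 9.89 to 14.0, overlapped, with 11 of 12 high kidneys above the median of the low ones. The log2 fold change was 0.46 ± 0.11 (limma-voom q = 0.975, DESeq2 q = 0.0742). Its slope in the middle kidneys was 0.02 (p = 0.744).

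The chromosome 6 neighbours of Pik3c2g are described apart, because nearby genes are often inherited together in recombinant inbred strains. Which of them were inherited together with Pik3c2g in these strains was not tested. Within 10 Mb of its start the files hold 166 genes, of which 66 passed the filter on low counts and were tested. None of the 66 reached q ≤ 0.1, and in none did the ranges of the 2 groups separate. An unadjusted p under 0.05 was found for 15 of the 66 (22.7%), 10 estimated higher and 5 lower in the high kidneys, beside 4.84% of all genes tested. Within 5 Mb the count was 14 of 36 (38.9%), and from 5 to 10 Mb it was 1 of 30 (3.33%). Farther along chromosome 6 it was 21 of 480 (4.38%), and on the other chromosomes 539 of 11315 (4.76%). These are shares of genes that may be linked and were measured in the same 24 kidneys. No test was made of the difference between the shares, and their cause was not tested.

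**Figure D2:**
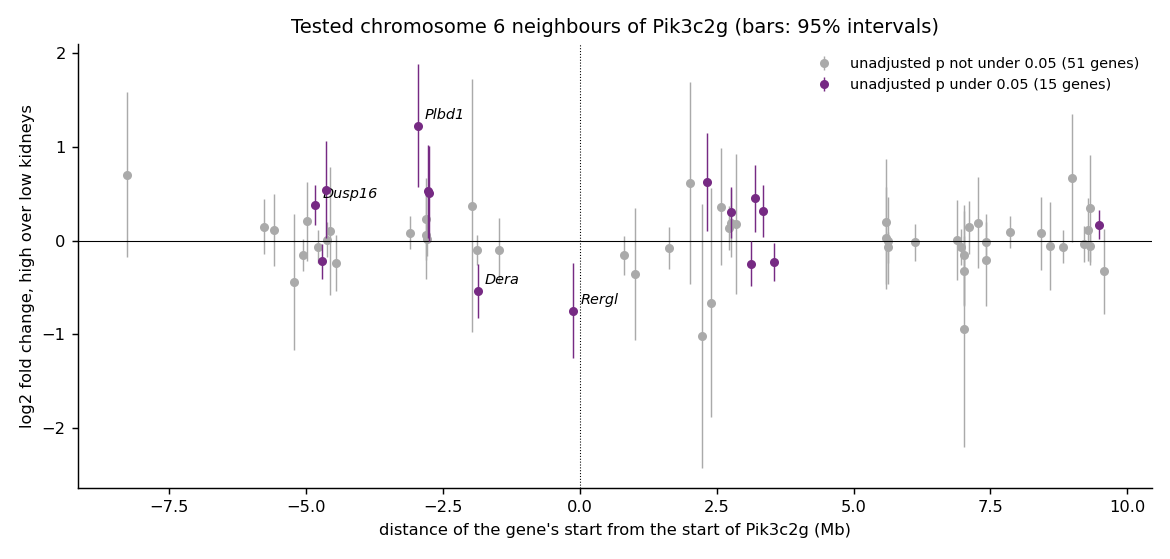
Log2 fold change between high and low kidneys, with 95% intervals, of the 66 tested genes within 10 Mb of Pik3c2g, against the distance of their starts from that of Pik3c2g in Mb. The 15 genes with an unadjusted p under 0.05 (purple) include 14 within 5 Mb, and they lie on both sides of 0; the 4 with p under 0.01 are labelled.

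The genes next to Pik3c2g were taken whatever their values. On the upstream side, Rergl, which encodes a small GTPase-like protein, starts 0.12 Mb away. It had 0.448 to 2.03 CPM (median 1.003) in the high and 0.645 to 3.24 CPM (median 1.603) in the low kidneys. Such levels are close to the limit of 3 counts, 0.211 to 1.16 CPM in these kidneys, so its single values are poorly resolved. Its log2 fold change was -0.75 ± 0.25, with a 95% interval from -1.26 to -0.24 (p = 0.00519, q = 0.975). Dera, which encodes the aldolase that splits deoxyribose 5-phosphate, starts 1.87 Mb upstream. It ranged from 30.6 to 62.7 CPM (median 43.3) in the high kidneys and from 37.6 to 95.3 (median 65.7) in the low ones, and all 12 high kidneys lay below the median of the low group. The log2 fold change of Dera was -0.54 ± 0.14, with an interval from -0.83 to -0.25 (p = 0.000777, q = 0.975).

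The remaining direct neighbours had intervals that included 0. Strap, a partner of kinase receptors and of the SMN complex, had a log2 fold change of -0.10 (-0.27 to 0.06), and Mgst1, a membrane-bound glutathione transferase, -0.10 (-0.45 to 0.24). Downstream, Plekha5, a pleckstrin homology domain protein, had -0.16 (-0.37 to 0.05) and Aebp2, a cofactor of Polycomb repressive complex 2, -0.36 (-1.06 to 0.35). The phosphodiesterase gene Pde3a had -0.08 (-0.30 to 0.15), and the organic anion transporter gene Slco1b2 0.61 (-0.47 to 1.70). The estimates of Strap, Mgst1, Plekha5 and Pde3a changed sign when log2(TPM + 1) was used, a scale on which the median of all genes was itself shifted to 0.14.

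The other neighbours with an unadjusted p under 0.05 are named after their values were seen. Plbd1, which encodes a lysosomal phospholipase B-like protein and starts 2.96 Mb upstream, had the largest log2 fold change of the 15, 1.23 ± 0.32 (p = 0.00073, q = 0.975). It ranged from 13.4 to 38.9 CPM (median 24.8) in the high kidneys and from 2.98 to 40.4 (median 11.4) in the low ones. All 12 high kidneys were above the median of the low group, while 1 low kidney exceeded every high kidney. Dusp16, a phosphatase of stress-activated MAP kinases that starts 4.83 Mb upstream, had medians of 12.4 and 10.1 CPM. Its log2 fold change was 0.38 ± 0.10 (p = 0.00119, q = 0.975), with 11 of 12 high kidneys above the median of the low group.

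On the upstream side 4 more genes had smaller or less certain differences. Art4, an ADP-ribosyltransferase gene, had 4.51 to 9.77 CPM in the high and 1.96 to 10.2 CPM in the low kidneys, a log2 fold change of 0.53 (0.03 to 1.02). Mgp, which encodes the matrix Gla protein that inhibits calcification, had 0.50 (0.00 to 1.01), and Apold1, known from endothelium, had 0.54 (0.02 to 1.07). Cdkn1b, which encodes the cell cycle inhibitor p27, was the lower one, at -0.22 (-0.41 to -0.03).

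Downstream, Slco1a1, an organic anion transporter of the proximal tubule brush border that responds to androgen, ranged from 637 to 3918 CPM (median 1653) in the high and from 441 to 2712 CPM (median 989) in the low kidneys. Its log2 fold change was 0.63 ± 0.25 (p = 0.0211, q = 0.988). The authors quantified uniquely aligned reads, so reads that fit several of the similar Slco1a genes equally would not be counted. The extent of such loss was not tested. St8sia1, the sialyltransferase that makes ganglioside GD3, had 0.32 (0.04 to 0.59), and Cmas, which activates sialic acid for such transferases, had -0.25 (-0.49 to -0.01). Gm7457, a gene model on the strand opposite to St8sia1 whose position overlaps it, had 0.45 (0.09 to 0.81), and its reads may not be separable from those of St8sia1. Golt1b, a Golgi transport gene, had 0.30 (0.03 to 0.58), Etnk1, an ethanolamine kinase gene, -0.23 (-0.44 to -0.03), and Dennd5b, a regulator of Rab GTPases and the one gene of the 15 beyond 5 Mb, 0.17 (0.01 to 0.33). Both sides of Pik3c2g held genes estimated higher and genes estimated lower in the high kidneys.

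**Figure D3:**
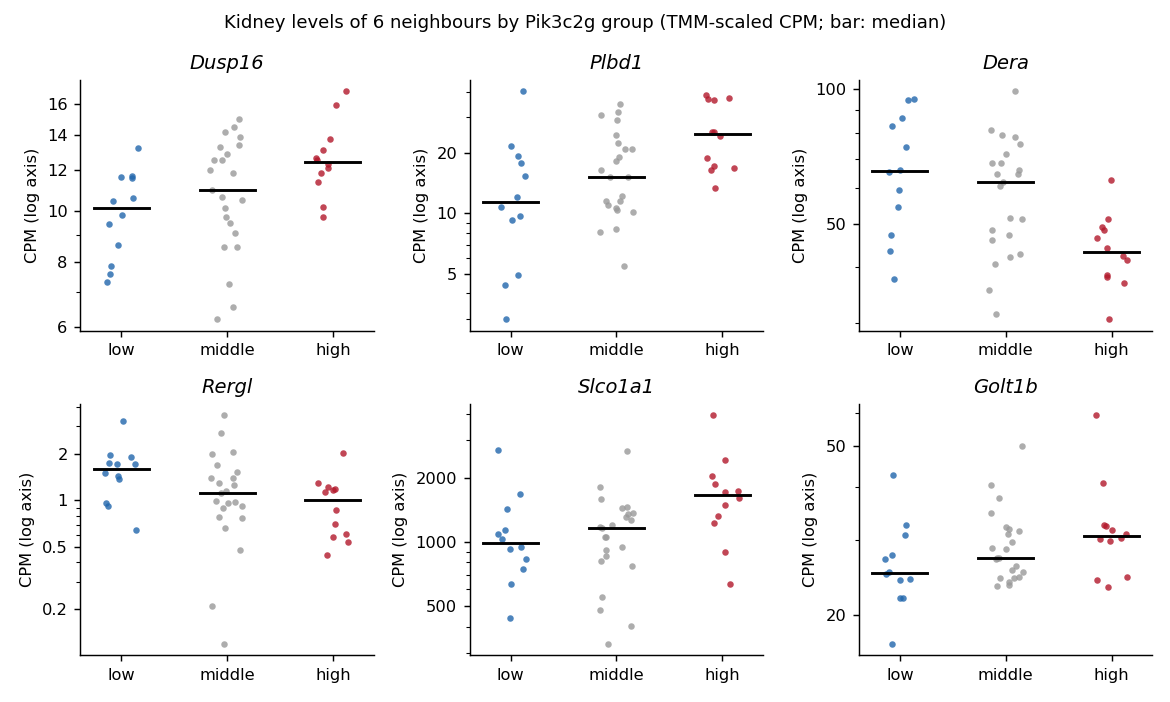
TMM-scaled CPM (log axis) of 6 neighbours in the low, middle and high kidneys, 1 point per kidney and a bar at each median. All 12 high kidneys lie above the low median for Plbd1 and below it for Dera, and in each of the 6 genes the ranges of the high and low kidneys overlap.

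The 23 middle kidneys belong to neither group and are a separate set of mice. In them, each gene was regressed on the Pik3c2g score, in log2 units per unit of score. Of 11851 genes, 0 reached q ≤ 0.1 with limma-voom (smallest q 0.379), and 813 (6.86%) had an unadjusted p under 0.05. Among the neighbours it was 9 of 66 (13.6%). Of the 15 genes above, 4 were among these 9. Dera had a slope of -0.13 (p = 0.0277), Cdkn1b of -0.06 (p = 0.049) and Dennd5b of 0.07 (p = 0.0415), each with the sign seen between the groups. Golt1b had a slope of -0.11 (p = 0.00618), the opposite sign. Plbd1 had a slope of 0.01 (p = 0.928) and Dusp16 of -0.00 (p = 0.977). The Lars2 share, given above for the 16 upper middle kidneys, varied widely among these kidneys, and its part in the slopes was not tested.

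The livers and lungs of the 24 strains came from the same mice but are libraries that the choice of groups did not use. Pik3c2g itself can be tested there. In liver it ranged from 21.1 to 39.6 TMM-scaled CPM (median 28.9) in the high strains and from 12.7 to 41.3 (median 23.8) in the low strains. The difference in log2(CPM + 1) was 0.22 (two-sided permutation test, p = 0.167, adjusted over the 2 tissues 0.167), with 9 of 12 high livers above the low median. In limma-voom its log2 fold change was 0.24, with a 95% interval from -0.07 to 0.56 (p = 0.126, q = 0.998). The liver difference was thus not resolved, with an upper bound of 0.56 on the log2 scale. The kidney ratio of 30.3 comes from the values that chose the groups, so it is not compared with the liver estimate.

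In lung, Pik3c2g ranged from 4.56 to 9.01 CPM (median 7.32) in the high strains and from 1.39 to 20.7 (median 3.68) in the low strains. All 12 high lungs lay above the low median, yet the highest value of all belonged to a low strain, CC015, whose kidney had the lowest Pik3c2g of the panel. That lung stands apart in scaling, since on CPM over the library total it had 7.77 and the highest low lung was that of CC046 at 17.99. The difference in log2(CPM + 1) was 0.50 (permutation p = 0.105, adjusted 0.167). Leaving out the lung of CC015, picked because it held the highest low value, gave 0.68. That rise was fixed by the choice and is a description only. In limma-voom the log2 fold change was 0.77 (0.18 to 1.36, p = 0.0127), which did not pass over all genes (q = 0.999).

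Across all genes, 0 of 10087 in liver and 0 of 13378 in lung reached q ≤ 0.1 with limma-voom. At an unadjusted p under 0.05 there were 377 (3.74%) in liver and 526 (3.93%) in lung, and edgeR's quasi-likelihood test called 2 genes in liver (374 at the unadjusted level) and 0 in lung (698). The 2 liver genes, named after their values were seen, were the gene model Gm4956 on chromosome 1 and Slc15a5, a peptide transporter family gene that is itself a neighbour, 1.54 Mb upstream of Pik3c2g. Slc15a5 ranged from 0.00 to 3.38 CPM (median 1.33) in the high livers and from 1.796 to 9.89 CPM (median 4.84) in the low livers, and all 12 high livers lay below the low median. Its liver log2 fold change was -1.77 ± 0.35 (p = 3.23e-05, limma-voom q = 0.325, edgeR q = 0.0309), and it was not tested in kidney. Of the tested neighbours, 9 of 57 (15.8%) in liver and 6 of 76 (7.89%) in lung had an unadjusted p under 0.05. Within 5 Mb it was 9 of 34 (26.5%) in liver and 4 of 36 (11.1%) in lung. From 5 to 10 Mb it was 0 of 23 in liver and 2 of 40 (5%) in lung.

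Of the 15 kidney neighbours, 13 were tested in liver and 13 in lung. Slco1a1 had an unadjusted p under 0.05 in liver and Golt1b in lung. Slco1a1 had 1074 to 2461 CPM (median 1818) in the high livers and 776 to 2228 CPM (median 970) in the low livers, with all 12 high livers above the low median. Its liver log2 fold change was 0.68 ± 0.16 (p = 0.00018, limma-voom q = 0.920), close to its kidney estimate of 0.63. Golt1b had 0.17 in lung (0.02 to 0.33). Dera had 0.23 in liver (p = 0.142) and -0.03 in lung (p = 0.776), and Plbd1 had 0.16 (p = 0.513) and 0.01 (p = 0.968).

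**Figure D4:**
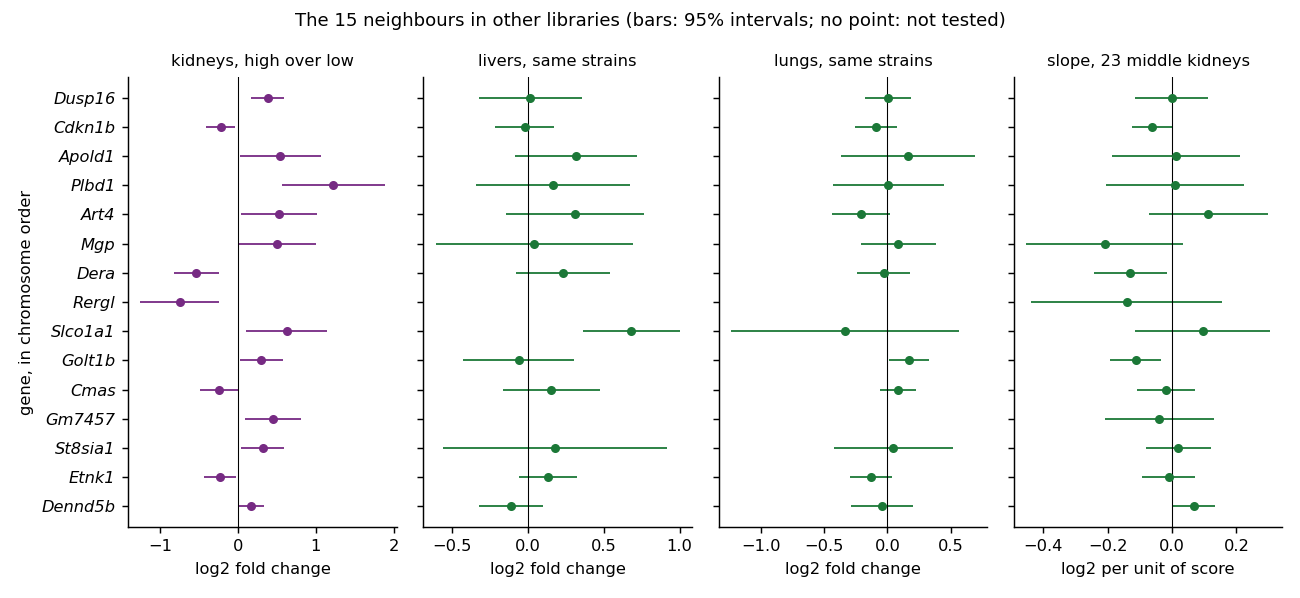
Estimates with 95% intervals for the 15 neighbours in the kidneys (log2 fold change, high over low), in the livers and lungs of the same strains (log2 fold change) and as the slope on the Pik3c2g score in the 23 middle kidneys (log2 per unit of score). In liver the interval of Slco1a1 lies off 0, in lung that of Golt1b, and among the slopes those of Cdkn1b, Dera, Golt1b and Dennd5b; each panel has its own axis range.

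Whether the high-low difference itself differed between tissues was tested with strain as a replicate block. No gene reached q ≤ 0.1 in limma-voom for kidney minus liver (11744 genes, 558 or 4.75% at an unadjusted p under 0.05, smallest q 0.114) or for kidney minus lung (13377 genes, 635 or 4.75%, smallest q 0.985). Without the block both counts were also 0, with 354 and 374 genes at the unadjusted level. Of all tested neighbours, 10 of 64 (15.6%) had an unadjusted p under 0.05 for kidney minus liver and 10 of 74 (13.5%) for kidney minus lung. Of the 15 neighbours, which were picked for their kidney difference, 7 and 6 did. The difference for Dera was -0.76 between kidney and liver (p = 0.00158) and -0.62 between kidney and lung (p = 0.000485). For Plbd1 it was 0.87 (p = 0.0136) and 0.93 (p = 0.000431), and for Dusp16 0.40 (p = 0.0294) and 0.40 (p = 0.00653). For Slco1a1 it was -0.05 between kidney and liver (p = 0.868), for St8sia1 0.01 (p = 0.986) and for Art4 0.15 (p = 0.570). The smallest q, 0.114, belonged to Gm6614, a gene model beside Slco1a1 named after its values were seen. It had 0.00 to 16.9 CPM in the high livers and 0.00 to 5.64 CPM in the low livers, against 2.17 to 8.64 and 1.83 to 83.9 CPM in the kidneys. Reads that fit both this gene model and a Slco1a gene equally would not be counted.

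The lipid kinase pathway around Pik3c2g was followed through gene lists, counted beside 4.84% of all genes at an unadjusted p under 0.05 and a median log2 fold change of all genes of 0.00. None of the members of the 24 lists reached q ≤ 0.1 in the main test. In 10 pathway lists 7 of 139 genes (5.04%) had an unadjusted p under 0.05, and in 14 cell marker lists 6 of 76 (7.89%). The 7 include Slco1a1, which was already counted among the neighbours of Pik3c2g. The pathway lists also hold the neighbours Gys2 and Kap, whose unadjusted p was not under 0.05. In bulk tissue, fewer cells of a type and less RNA per cell cannot be told apart.

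The relatives of Pik3c2g were not resolved as different between the groups. Pik3c2a had 209 to 448 CPM (median 298) in the high and 247 to 400 CPM (median 307) in the low kidneys, a log2 fold change of -0.06 with an interval from -0.29 to 0.18. Pik3c2b had 4.74 to 12.4 CPM (median 8.35) and 6.90 to 12.1 CPM (median 7.83), a log2 fold change of 0.02 (-0.24 to 0.28). Of 10 tested catalytic and regulatory PI3-kinase subunits, 5 were estimated higher and 5 lower, and the smallest p was that of Pik3ca, the catalytic alpha subunit, with -0.15 (p = 0.0556). With scaling by library totals 8 of the 10 were estimated higher, at a median of 0.11, as were all genes.

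Among 14 phosphoinositide phosphatases and kinases, 1 had an unadjusted p under 0.05. This was Vac14, the scaffold of the enzyme complex that makes phosphatidylinositol 3,5-bisphosphate, with 30.7 to 42.6 CPM (median 33.9) in the high and 25.1 to 37.7 CPM (median 27.5) in the low kidneys, a log2 fold change of 0.24 (p = 0.00672, q = 0.975). Of 17 insulin and Akt signalling genes 13 were estimated higher and 0 had an unadjusted p under 0.05 in limma-voom. The smallest p there belonged to Gsk3a, the kinase that inhibits glycogen synthase, with 0.16 (p = 0.0740). Of 21 endosomal trafficking genes 10 were estimated higher, 11 lower, and Rab11b, a GTPase of recycling endosomes, had 0.14 (p = 0.0437).

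Of 23 glycogen genes 13 were estimated higher and 10 lower, and 2 had an unadjusted p under 0.05, both higher. Ppp1r3c, which encodes the subunit that brings protein phosphatase 1 to glycogen, ranged from 2.45 to 15.3 CPM (median 4.02) in the high and from 0.633 to 3.90 CPM (median 2.09) in the low kidneys. All 12 high kidneys were above the low median, and the ranges overlapped. Its log2 fold change was 1.21 ± 0.32 (p = 0.00087, q = 0.975), its slope in the middle kidneys was -0.07 (p = 0.488), and its log2 fold change in liver was -0.10 (p = 0.792). Gyg, the glycogenin primer of glycogen, had 0.20 (p = 0.0205) and, like Gys2, is named after its values were seen. Gys2, the liver-type glycogen synthase gene, which lies 2.85 Mb downstream of Pik3c2g, had 0.17 (-0.57 to 0.92).

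Of 11 androgen-responsive kidney genes, 8 were estimated higher and 1, the neighbour Slco1a1, had an unadjusted p under 0.05. Kap, an abundant androgen-regulated kidney gene that lies 5.77 Mb upstream of Pik3c2g and was named after its values were seen, had medians of 25175 and 25341 CPM and a log2 fold change of 0.15 (-0.14 to 0.44). Of 13 interferon response genes 12 were estimated lower, with a median of -0.27, and 2 had an unadjusted p under 0.05. Ifi44 had -0.73 (p = 0.0171) and Ifit2, named after its values were seen, had -0.35 (p = 0.0213). With scaling by library totals 10 of the 13 were estimated lower, and on log2(TPM + 1) 9 of the 13. In limma-voom on the same strains, Ifi44 was also lower in liver (-1.78, p = 0.0082, q = 0.998) and lung (-1.21, p = 0.0138, q = 0.999). In 4 high livers Ifi44 had no more than 3 counts. Ifit2 had -0.23 in liver (p = 0.264) and -0.56 in lung (p = 0.0461, q = 0.999). Of 11 immediate-early genes 10 were estimated higher in the high kidneys, with a median of 0.28 and 0 at an unadjusted p under 0.05 in limma-voom. The genes with the smallest p were Arntl at -0.44 (p = 0.220) among 11 clock genes, Nr4a1 at 0.50 (p = 0.145) among the immediate-early genes and Hspa1b at 0.62 (p = 0.164) among 8 heat shock genes.

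The markers of the kidney's own cells were present in both groups. Summed over the list, proximal tubule markers ranged from 22310 to 29750 CPM (median 25980) in the high and from 21270 to 32150 CPM (median 23790) in the low kidneys. Of 16 tested markers 8 were estimated higher and 8 lower. Slc22a6, the organic anion transporter OAT1 of the basolateral membrane, had 0.34 (p = 0.00636) and Slc34a1, the main sodium-phosphate cotransporter and named after its values were seen, 0.21 (p = 0.0495). All 5 tested thick ascending limb markers were estimated lower, with a median of -0.46. On log2(TPM + 1) 4 of the 5 were, with a median of -0.205. Among them Kcnj1, which encodes the potassium channel ROMK, had -0.46 (p = 0.0128), Slc12a1, the NKCC2 cotransporter, -0.49 (p = 0.0222), and Cldn19, a tight junction claudin, -0.47 (p = 0.0359), and the latter pair are named after their values were seen. The 3 markers with an unadjusted p under 0.05 became 0 with library totals and on both TPM scales, and 1 with groups of 8 or of 15. Their summed level overlapped between the groups, 59.2 to 163.9 CPM against 77.8 to 183.7 CPM (permutation p = 0.0579, adjusted over the 19 measures 0.318). In the middle kidneys the slopes of Kcnj1 and Slc12a1 were 0.02 (p = 0.843) and 0.01 (p = 0.959).

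Cdh5, the cadherin of endothelial junctions, had 0.29 (p = 0.00527), 1 of 6 tested endothelial markers. The 3 tested adipose markers had a median of 0.87, with Fabp4 at 45.996 to 670 CPM in the high and 22.9 to 165 CPM in the low kidneys (p = 0.0793). The median was 0.37 with groups chosen on TMM-scaled CPM and 0.37 without Lars2. The smallest p in the other lists belonged to Slc22a13 in the last proximal segment (-0.23), Slc8a1 in the distal convoluted and connecting tubule (0.35), Scnn1g in principal cells (-0.17) and Aqp6 in intercalated cells (-0.33). Beyond the tubule it belonged to Wt1 in podocytes (0.07), Col3a1 in stroma (0.35), C1qa among immune markers (-0.30), Havcr1 among injury markers (1.18), Star among adrenal markers (0.25) and Upk1b in urothelium (0.47), and none of these 10 had an unadjusted p under 0.05. Havcr1 had no more than 3 counts in 6 of 12 high and 6 of 12 low kidneys. Its means were 1.26 and 1.17 CPM, so its estimate rests on values near the limit of counting.

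**Figure D5:**
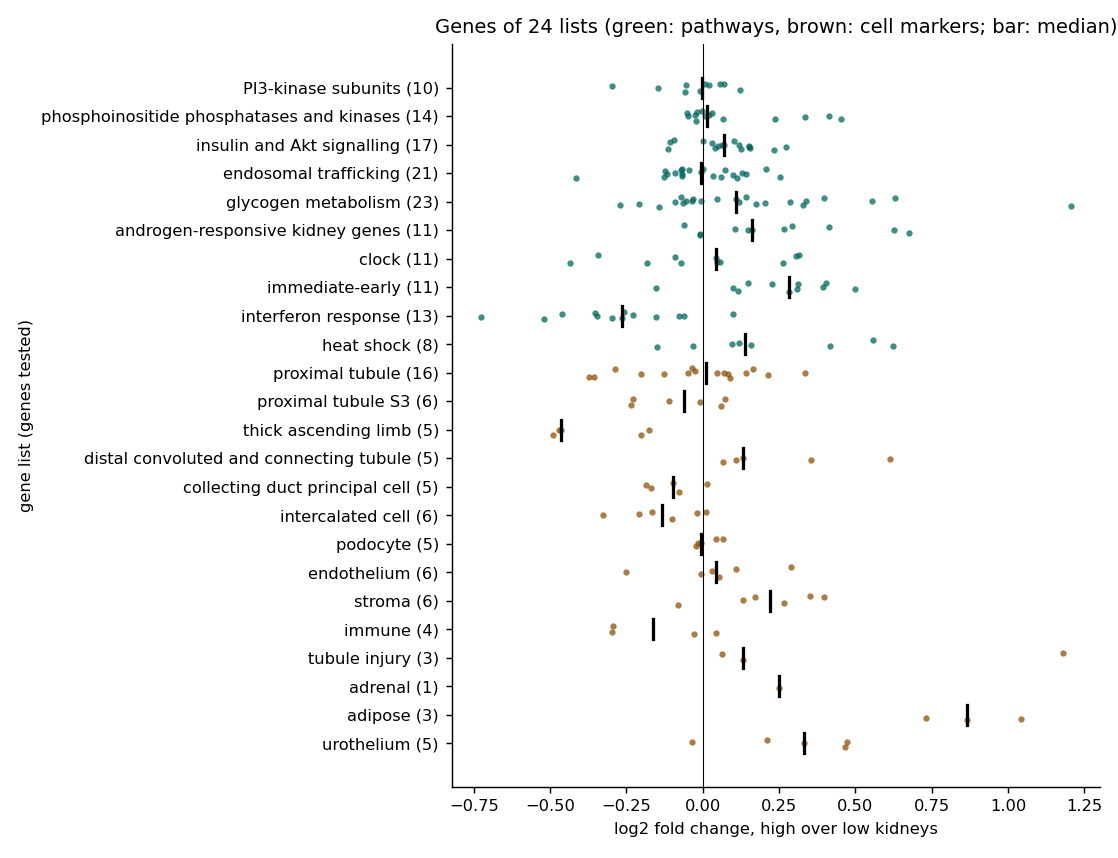
Log2 fold change between high and low kidneys of the tested genes in 10 pathway lists (green) and 14 cell marker lists (brown), 1 point per gene, with a bar at each list's median and the number of genes tested in brackets. The medians of the PI3-kinase and endosomal lists lie at -0.00 and -0.01, and that of the thick ascending limb at -0.46.

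Outside the lists and the neighbourhood, the genes described next, Slc12a7 and Abt1, had small p in the kidneys and were named after their values were seen. Slc12a7, the potassium-chloride cotransporter KCC4, ranged from 209 to 371 CPM (median 275) in the high and from 155 to 296 CPM (median 202) in the low kidneys, a log2 fold change of 0.44 ± 0.11 (p = 0.000377, q = 0.975). Abt1, an activator of basal transcription, ranged from 7.74 to 14.4 CPM (median 11.1) and from 12.5 to 16.3 CPM (median 14.7), a log2 fold change of -0.35 ± 0.09 (p = 0.000464, q = 0.975). All 12 high kidneys lay above the low median for Slc12a7 and below it for Abt1. Their slopes in the middle kidneys were 0.09 (p = 0.135) and -0.04 (p = 0.375), with the signs seen between the groups and unadjusted p not under 0.05.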

How the data were processed

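RNA-seq libraries of kidney, liver and lung from 1 male mouse of each of 47 CC strains were used. Single-end reads of 50 bases were aligned by the authors with STAR 2.5.3a to strain-specific pseudo-genomes of the Build37 mouse genome and quantified genes with RSEM. The expected counts deposited by the authors for 24423 genes were rounded, and 25 values were not whole. The TPM deposited by the authors were used for 2 alternatives, and the FPKM deposited by the authors were read but not used. Depth without Rn45s is given in the text and sets the precision, since 3 counts correspond to 0.211 to 1.16 CPM in the kidneys of the groups.

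Groups followed log2(CPM + 1) of Pik3c2g. Rn45s was left out of all totals. Genes exceeding 1 CPM in 30% or more of a comparison's libraries were fitted with TMM scaling and limma-voom (limma 3.58.1, edgeR 4.0.16, DESeq2 1.42.0, R 4.3.3), with Benjamini-Hochberg adjustment and q ≤ 0.1. The comparison of tissues had strain as a replicate block, since the tissues of a strain come from 1 mouse. Single values were compared by two-sided permutation tests with 100000 resamples. Positions are those of GENCODE vM1 on NCBIM37, found by symbol for 84.4% of the genes. The scripts were tested on simulated data. Permutations ran in scipy 1.17.1 under Python 3.11.15, and figures were drawn with matplotlib 3.10.9.

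The members and gene lists were chosen with earlier results of these data known. Genes are named by a rule: the 4 tested genes next to Pik3c2g on each side, neighbours and other genes past q ≤ 0.1, in each list the members past it or else the 1 with the smallest p, and the Pik3c2 isoforms. Genes named for other reasons are marked so. Alternatives covered scaling, the low-count filter, tests, thresholds, group sizes, single kidneys and the block. Groups chosen on TMM-scaled CPM, the Lars2 share as a covariate and totals without Lars2 were added after seeing the data. Sequencing batches, genotypes and chromatin accessibility were not analysed here. The values of 1 gene are not reported here.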

Additional observations from a re-analysis of the deposited data

How the results depend on the processing

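The count of 0 genes at q ≤ 0.1 between the high and low kidneys was the same under DESeq2 size factors, library totals, both other filters, edgeR, both TPM scales, all 47 kidneys in 3 groups and groups of 8 or 15. The exceptions were 2 genes with the Wald test of DESeq2, Gstcd among them, and, added after seeing the data, 1 gene with the Lars2 share as a covariate (Hoxa11, log2 fold change -0.90, q = 0.0979). Leaving out 1 kidney at a time gave 0 to 1 genes, the 1 without the low kidney of CC015, and 10 to 17 neighbours at an unadjusted p under 0.05. That neighbour count was 15 in the main test, 7 with 8 against 8 kidneys and 10 to 20 under the other alternatives. In liver edgeR gave 2 genes in place of 0. With the slope taken over all 47 kidneys 16 neighbours in place of 9 had an unadjusted p under 0.05. Without the replicate block the tissue comparisons stayed at 0 genes.

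Library totals, log2(TPM + 1) and log2(TPM + 0.1) shifted the median of all genes to 0.11, 0.14 and 0.17. With library totals Strap became 0.0179, Pde3a 0.0372 and Pik3c2a 0.0683. With log2(TPM + 1) Strap became 0.0616, Mgst1 0.0408, Plekha5 0.0412, Pde3a 0.0960, Pik3c2a 0.118 and Pik3ca 0.0250, and with log2(TPM + 0.1) they became 0.0627, 0.0405, 0.0463, 0.111, 0.120 and 0.0259. Pik3c2a was 0.0407 with 8 against 8 kidneys. Pik3c2b was -0.0250 with 15 against 15, -0.0139 with groups chosen on TMM-scaled CPM and -0.0148 without Lars2, and Upk1b was -0.0185 and -0.0204 in the last pair. These are 21 of 821 values of 59 named genes, their main 95% intervals included 0, the other values kept their sign, and the cause was not tested. The relation of depth to the width of the intervals was not tested.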
